A study of Mus musculus with 6 samples.

Results

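The intercalated disc is the junction through which neighbouring heart muscle cells hold together and pass current, and 10 of its genes were followed in left ventricular RNA. They were the gap junction genes Gja1, Gja5 and Gjc1, the desmosome genes Dsp, Pkp2, Dsg2, Dsc2 and Jup, the adherens junction cadherin Cdh2 and the scaffold gene Tjp1. Each was found by its Ensembl identifier, matched to the gene symbol in the GENCODE annotation, among 54532 genes with a value. All 10 were among the 14225 genes that passed the minimum level for testing.

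Myocardium had been taken from 3 HFpEF mice and 3 Chow mice, with 1 library per mouse. HFpEF mice, which model heart failure with preserved ejection fraction, had eaten a high-fat diet with 60% of its energy from fat and drunk water with 0.5 g/L L-NAME, which blocks nitric oxide synthase, over 12 weeks. Chow mice had standard chow and plain water over the same time. All were male, wild-type C57BL/6 mice aged 6 to 8 weeks at the start, and diet and L-NAME were always given together, so the parts of the 2 agents in any difference cannot be told apart. The labels give the tissue only as heart, and the study's methods name the left ventricle. Where 3 values are given for a group, they follow the replicate numbers 1, 2 and 3.

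Gap junctions are clusters of channels built from connexins, through which ions move from cell to cell. Desmosomes tie the intermediate filaments of neighbouring cells together through desmosomal cadherins, armadillo proteins and desmoplakin, and adherens junctions do the same for actin. In heart muscle these structures lie intermingled at the cell ends, and inherited defects in desmosome genes are a known cause of arrhythmogenic cardiomyopathy.

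The libraries held 13075465 to 15572774 recovered reads in Chow and 13459624 to 16024518 in HFpEF. Mitochondrially encoded genes took 24.0% to 26.0% of the reads in Chow, 22.6% and 20.1% in HFpEF replicates 1 and 2, and 7.18% in HFpEF replicate 3. That library also held 2252 FPKM (fragments counted relative to exon length and sequencing depth) of the collagen gene Col1a1, against 24.9 to 87.2 in the other 5. It had the lowest level of all 6 libraries for 9 of the 10 disc genes, all but Gjc1, and values without it are given below where they move a fold change by over 1.5 times or change its call. Atrial muscle markers were present in some of these ventricular libraries. The summed FPKM of the 7 atrial markers was 23.6, 26.1 and 550 in Chow and 2462, 3845 and 29.9 in HFpEF. Hence Chow replicate 3 and HFpEF replicates 1 and 2 carried atrial transcripts at levels that the other 3 libraries lacked. All 10 ventricular cardiomyocyte markers were at lower levels in every HFpEF library than in any Chow library. Their sum was 17825 to 19533 FPKM in Chow and 8735 to 13618 FPKM in HFpEF. In such bulk samples, fewer cells of a type and less RNA per cell cannot be told apart.

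No disc gene passed the test across all genes at an adjusted p under 0.05 (limma, Benjamini-Hochberg), a threshold that 0.0984% of the genes tested passed. None passed the study's thresholds for differential expression either, which also ask for a log2 fold change of 2 or more in either direction. In this limma fit 0.0562% of genes passed them. The study applied them to DESeq2, so that share is not the yield of its own test. Voom on the recovered reads called 0 of the 14213 genes it tested, so its count of 0 among the 10 says nothing about them. At an unadjusted p under 0.05, 4 of the 10 were lower in HFpEF, namely Gja1, Dsp, Pkp2 and Cdh2, where 13.1% of all genes tested were. None of the 10 was higher at that threshold, where 10.2% of all genes were. For 6 of the 10, every HFpEF library lay below every Chow library, a pattern held by 19.8% of all genes tested. None of the 10 showed the opposite pattern, which 15.5% of all genes did. These counts depended on the scaling of libraries. Scaled to the FPKM total without mitochondrial genes, which moved the all-gene median to 0.23, 1 of the 10 was lower without overlap and 1 had an unadjusted p under 0.05, while 608 genes in all were lower and 3649 higher at that p. Scaled to cardiomyocyte markers, which moved the all-gene median to 0.64, 0 were lower without overlap. The shares of all genes lower without overlap on these scales are not given here. These counts therefore do not set the disc genes apart. The median log2 fold change of the 10 was -0.39, and that of all genes tested was -0.01.

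**Figure D1:**
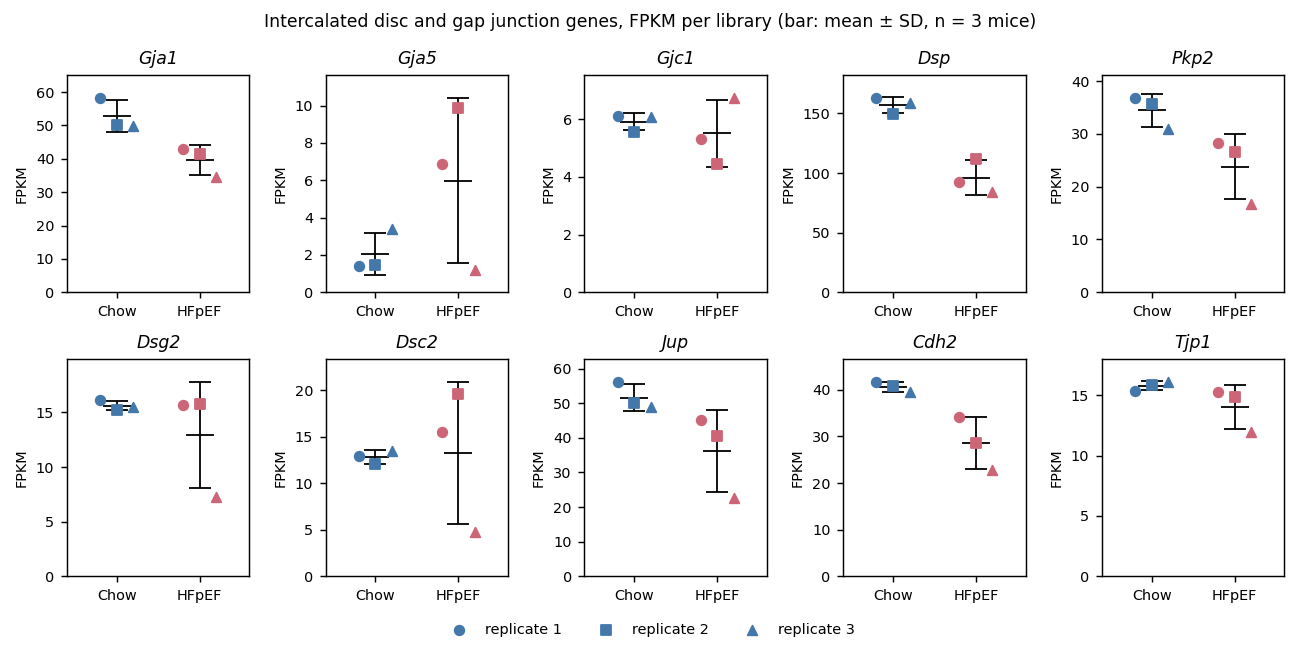
FPKM of each of the 10 genes (vertical axes, from 0) in the 3 Chow and the 3 HFpEF libraries, with the marker shape giving the replicate number and the bars the mean ± SD (n = 3 mice). Dsp lies at 149 to 163 in Chow and 83.8 to 112 in HFpEF, and the lowest point is HFpEF replicate 3 for every gene but Gjc1.

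The 10 genes covered a wide range of levels per exon length. In Chow the order of mean FPKM ran from Dsp (157) through Gja1 (52.8), Jup (51.6), Cdh2 (40.7), Pkp2 (34.5), Tjp1 (15.8), Dsg2 (15.6), Dsc2 (12.8) and Gjc1 (5.91) to Gja5 (2.07). Gja1 and Jup overlapped across the Chow libraries, as did Tjp1 and Dsg2, and every other pair of neighbours in that order was separate in all 3. In HFpEF the order began in the same way, with Dsp at 96.0, Gja1 at 39.6, Jup at 36.2, Cdh2 at 28.5 and Pkp2 at 23.8. Lower down, Gja5 (5.99) had a higher mean than Gjc1 (5.50) in HFpEF, with ranges that overlapped.

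Promoter letters were available for 5 of the 10 genes, and 3 are shown because these genes differed most in pattern, with Gja1 and Dsp lower in every HFpEF library and Gja5 highest in a pair of HFpEF libraries. Each is the 250 bases before the RefSeq gene start (GRCm38.p6, plus strand), with capitals for the motifs found in them. They lie at chr10:56377050-56377299 for Gja1, chr13:38151044-38151293 for Dsp and chr3:97032152-97032401 for Gja5. The windows of Gja5 and of Tjp1, read further below, lie inside the GENCODE spans of these genes. For both, the RefSeq start used here is therefore not the start of the span that was measured.
Gja1: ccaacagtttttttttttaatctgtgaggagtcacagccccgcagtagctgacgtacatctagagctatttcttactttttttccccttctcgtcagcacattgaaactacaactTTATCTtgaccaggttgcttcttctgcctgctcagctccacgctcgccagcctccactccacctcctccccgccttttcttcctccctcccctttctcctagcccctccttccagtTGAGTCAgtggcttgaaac
Dsp: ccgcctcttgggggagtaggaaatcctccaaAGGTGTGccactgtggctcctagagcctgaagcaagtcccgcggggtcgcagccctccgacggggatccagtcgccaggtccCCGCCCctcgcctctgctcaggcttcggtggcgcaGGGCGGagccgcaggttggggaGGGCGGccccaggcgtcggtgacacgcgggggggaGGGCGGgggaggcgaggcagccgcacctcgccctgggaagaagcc
Gja5: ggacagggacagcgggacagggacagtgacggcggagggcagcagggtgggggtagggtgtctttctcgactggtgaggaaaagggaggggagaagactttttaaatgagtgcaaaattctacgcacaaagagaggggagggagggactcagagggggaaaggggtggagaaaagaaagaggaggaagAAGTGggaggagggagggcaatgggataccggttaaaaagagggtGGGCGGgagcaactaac
The motifs were searched on both strands and did not overlap one another in these 3 windows. The T-box half-site AGGTGTG occurred in 5.11% of the 32851 RefSeq promoter windows of this length, the NKX2-5 core AAGTG in 40.7%, the GATA core AGATAA in 9.99%, the MEF2-like TATTTATA in 1.56%, the Sp1 box GGGCGG in 32.7% and the AP-1 site TGANTCA in 6.75%. Gja1 held 1 GATA core starting 135 bases before the start and 1 AP-1 site starting 19 bases before it. Dsp held 1 T-box half-site, 219 bases before the start, and 4 Sp1 boxes. Gja5 held 1 NKX2-5 core 62 bases before the start and 1 Sp1 box 17 bases before it. The windows of Jup and Tjp1 held 2 Sp1 boxes each, and that of Jup also 1 T-box half-site. Such matches describe the letters only.

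Among the gap junction genes, Gja1 was the most abundant. It encodes Cx43, the main connexin of working ventricular muscle, and lies on chromosome 10 (GRCm38, 56377330 to 56402513, plus strand). Gja1 measured 58.3, 50.1 and 49.9 FPKM in Chow and 42.9, 41.4 and 34.5 FPKM in HFpEF. All 3 HFpEF values lay below the lowest Chow value. The mean was 52.8 ± 4.79 in Chow and 39.6 ± 4.47 in HFpEF (SD, n = 3 each), 24.9% lower. On the log2(FPKM + 0.1) scale the fold change was -0.42 (SE 0.13, limma adjusted p = 0.153). It stayed between -0.48 and -0.32 when any 1 library was left out, and was -0.24 with quantile normalization, -0.16 with the total without mitochondrial genes and 0.26 with cardiomyocyte scaling.

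Gja5 encodes Cx40, a connexin known from atrial muscle, the conduction system and arterial endothelium, and lies on chromosome 3 (96904693 to 97077416, plus strand). Its FPKM was 1.41, 1.44 and 3.37 in Chow and 6.90, 9.89 and 1.17 in HFpEF, from 97 to 963 recovered reads. HFpEF replicates 1 and 2 had the highest levels, Chow replicate 3 came next, and HFpEF replicate 3 had the lowest of all 6. The groups therefore overlapped. The log2 fold change was 1.15 (SE 0.79, limma adjusted p = 0.396). Without HFpEF replicate 1 it was 0.83, without HFpEF replicate 2 it was 0.57, and without HFpEF replicate 3 it was 2.06 (SE 0.42) with a limma adjusted p of 0.0484, in a fit that called 8.22% of all genes tested.

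The libraries with more Gja5 were those with atrial transcripts. Myl7, the atrial regulatory light chain, measured 3.81, 0.289 and 237 FPKM in Chow and 975, 2073 and 8.60 FPKM in HFpEF. Sln (sarcolipin) was listed at 0 in Chow replicates 1 and 2 and measured 54.5 in Chow replicate 3, 219 and 431 in HFpEF replicates 1 and 2 and 1.37 in HFpEF replicate 3. HFpEF replicate 2, HFpEF replicate 1 and Chow replicate 3 thus held the 3 highest levels, in that order, for Gja5, Myl7 and Sln alike. Of the 7 atrial markers 6 were tested, 5 had a log2 fold change above 0, and none passed an adjusted p under 0.05. The atrial markers Kcna5 and Nr2f2 did not follow the library order of Gja5. Kcna5 was lower in every HFpEF library than in any Chow library, with a log2 fold change of -0.56 (SE 0.18). Nr2f2 was higher in every HFpEF library than in any Chow library, HFpEF replicate 3 included, with a log2 fold change of 0.78 (SE 0.14). Bmp10, another atrial marker, was listed at 0 in all 3 Chow libraries and measured 148, 0.0263 and 0.0115 FPKM in HFpEF. It was thus high in HFpEF replicate 1 alone, and not in HFpEF replicate 2 or Chow replicate 3. With the mean log2 level of Myl4, Myl7, Sln and Nppa as a covariate, a fit chosen after the values were seen, the log2 fold change of Gja5 was -0.15 (SE 0.39, limma adjusted p = 0.822).

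Markers of the other tissues known to use Gja5 were read too. Irx3, the most abundant of the 9 conduction system markers, measured 22.0, 19.7 and 15.2 FPKM in Chow and 12.4, 8.68 and 8.19 in HFpEF, and the list's sum, to which it gave the most, was 22.0 to 28.8 in Chow and 13.0 to 19.0 in HFpEF. Low members of that list, picked out after their values were seen, had other orders. Cpne5 measured 0.0351, 0.0852 and 0.0758 FPKM in Chow and 1.04, 0.669 and 0.0216 in HFpEF, highest in HFpEF replicates 1 and 2 and lowest in HFpEF replicate 3, as for Gja5. Shox2 measured 0.125 to 0.276 FPKM in Chow and 0.458, 2.03 and 0.782 in HFpEF. Arterial endothelial markers, 7 genes led by Dll4, Gja4 and Unc5b, summed to 43.8 to 48.7 FPKM in Chow and 40.0 to 49.5 in HFpEF. The part of atrial tissue in the Gja5 values was not tested beyond the covariate, and that of conduction or arterial tissue was not tested. Part of Gja5 also overlaps genes on the opposite strand, of which Gpr89 reached 3.53 FPKM, and without strand information reads in the overlap cannot be told apart.

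**Figure D2:**
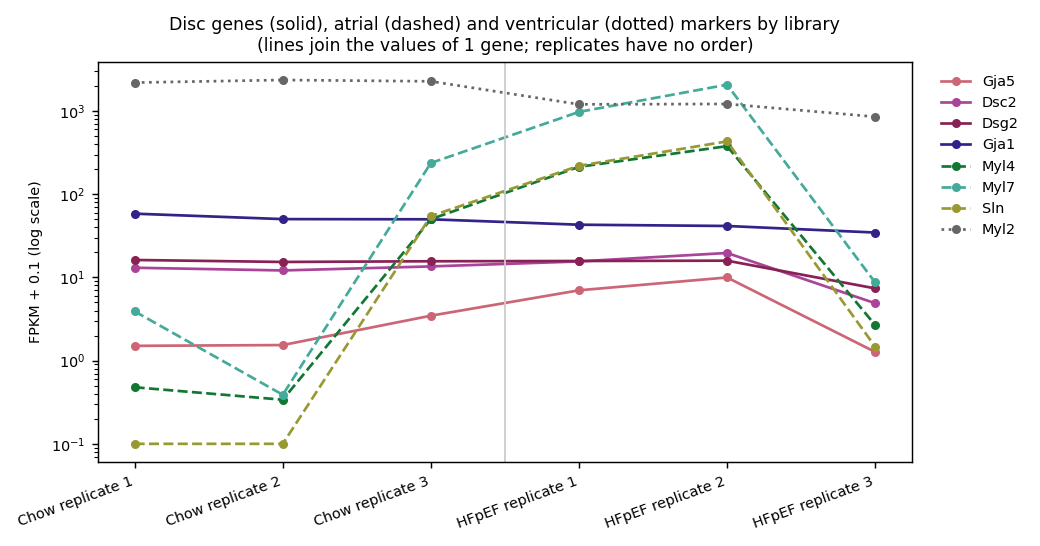
FPKM + 0.1 on a log axis for 4 disc genes (solid lines), 3 atrial markers (dashed) and the ventricular marker Myl2 (dotted) in each of the 6 libraries, with lines joining the values of 1 gene and no order among replicates. Gja5 and the atrial markers are highest in HFpEF replicates 1 and 2 and Chow replicate 3, while Gja1 stays between 34.5 and 58.3 FPKM.

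Gjc1 encodes Cx45, a connexin of the conduction system and the embryonic heart, and lies on chromosome 11 (102799579 to 102819700, minus strand). Its FPKM was 6.09, 5.57 and 6.08 in Chow and 5.31, 4.46 and 6.74 in HFpEF. HFpEF replicate 3 had the highest value of all and HFpEF replicate 2 the lowest, so the groups overlapped. The log2 fold change was -0.12 (SE 0.16, limma adjusted p = 0.662), and it was 0.02 without HFpEF replicate 2 and -0.27 without HFpEF replicate 3.

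Taken as shares of the summed FPKM of all 20 connexin genes, Gja1 held less of the total in HFpEF. Its share was 67.3%, 66.8% and 63.2% in Chow and 55.0%, 54.7% and 56.4% in HFpEF, without overlap. Gja5 held 1.62%, 1.92% and 4.27% in Chow and 8.85%, 13.1% and 1.91% in HFpEF. Gja3 (Cx46) held 12.2%, 13.5% and 10.6% in Chow and 11.5%, 11.8% and 7.88% in HFpEF, and Gja4 (Cx37), an arterial endothelial connexin, held 10.3%, 8.69% and 12.0% in Chow and 14.8%, 9.34% and 14.6% in HFpEF. So in HFpEF replicates 1 and 2 part of the remainder was Gja5, and in HFpEF replicate 3 it was not. In that library Gjc1 held 11.01%, against 5.89% to 7.70% elsewhere, and the connexins other than these 5 held 8.18%, against 1.55% to 5.19% elsewhere. The summed connexin level was 75.1 to 86.6 FPKM in Chow and 61.2 to 78.0 FPKM in HFpEF.

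**Figure D3:**
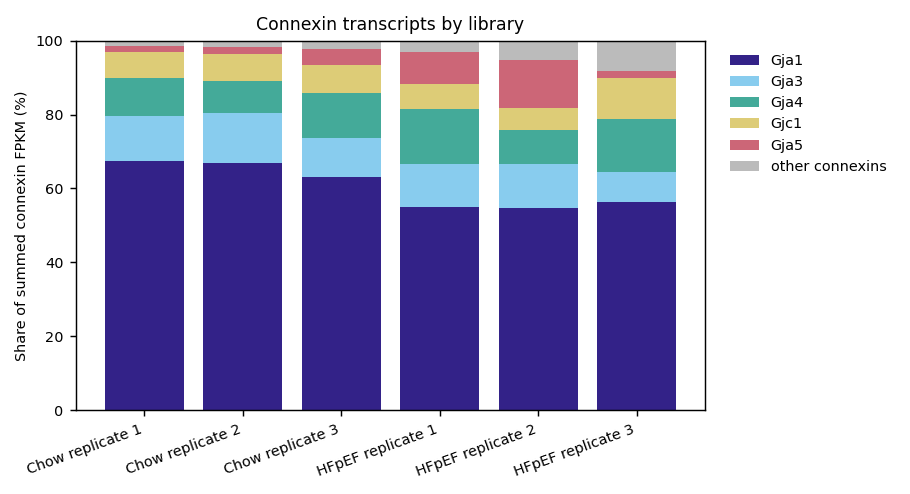
Share of the summed connexin FPKM (vertical axis, percent) held by 5 connexins and by the rest in each library. The Gja1 segment covers 63.2% to 67.3% in Chow and 54.7% to 56.4% in HFpEF, and the Gja5 segment is widest in HFpEF replicate 2, at 13.1%.

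None of the remaining connexins passed the test. Gja3 had a log2 fold change of -0.40 (SE 0.26, limma adjusted p = 0.373), and of -0.10 without HFpEF replicate 3. For Gja4 it was 0.13 (SE 0.22, adjusted p = 0.728). Gjb5 and Gjd3 reached 0.5 FPKM in at least 1 library without being tested. Gjb5 measured 0.0961 to 0.163 FPKM in Chow and 0.126, 1.06 and 2.02 FPKM in HFpEF, and Gjd3 lay at 0.204 to 0.604 FPKM over all 6 libraries.

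Among the desmosome genes, Dsp had the highest level. It encodes desmoplakin, the linker between the desmosomal plaque and desmin filaments, and lies on chromosome 13 (38151294 to 38198577, plus strand). Dsp measured 163, 149 and 159 FPKM in Chow and 92.3, 112 and 83.8 FPKM in HFpEF. A gap of 37.3 FPKM separated the highest HFpEF library from the lowest Chow library. The mean was 157 ± 7.03 in Chow and 96.0 ± 14.5 in HFpEF (SD, n = 3 each), 38.9% lower. The log2 fold change was -0.72 (SE 0.15, limma adjusted p = 0.10), and without HFpEF replicate 3 it was -0.63 (SE 0.10) with a limma adjusted p of 0.0209. With all libraries it was the largest in size of the 5 desmosome genes, but the smallest under cardiomyocyte scaling, at -0.05.

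The armadillo proteins of the plaque were lower in each HFpEF library too. Pkp2 encodes plakophilin 2, which binds desmoplakin, and lies on chromosome 16 (16213318 to 16272712, plus strand). It measured 36.8, 35.7 and 31.0 FPKM in Chow and 28.3, 26.5 and 16.7 FPKM in HFpEF, with a log2 fold change of -0.57 (SE 0.21, limma adjusted p = 0.188). Jup encodes plakoglobin, found in desmosomes and adherens junctions alike, and lies on chromosome 11 (100368958 to 100397763, minus strand). Its FPKM was 56.2, 50.0 and 48.8 in Chow and 45.3, 40.5 and 22.7 in HFpEF, with a log2 fold change of -0.57 (SE 0.26, limma adjusted p = 0.243). For both genes HFpEF replicate 3 was far below the other HFpEF libraries, and without it the log2 fold changes were -0.33 for Pkp2 (adjusted p = 0.0893) and -0.27 for Jup (adjusted p = 0.132).

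The desmosomal cadherins, which span the gap between cells and both lie on chromosome 18, did not share this pattern. Dsg2 (desmoglein 2) measured 16.1, 15.2 and 15.5 FPKM in Chow and 15.7, 15.8 and 7.28 FPKM in HFpEF. HFpEF replicates 1 and 2 lay within the Chow range and only HFpEF replicate 3 lay below it. Its log2 fold change was -0.36 (SE 0.30, limma adjusted p = 0.480) with all libraries and 0.01 (SE 0.07) without HFpEF replicate 3. Dsc2 (desmocollin 2) measured 13.0, 12.0 and 13.5 FPKM in Chow and 15.5, 19.6 and 4.80 FPKM in HFpEF. Here HFpEF replicates 1 and 2 lay above every Chow library and HFpEF replicate 3 below every one. Its log2 fold change was -0.18 (SE 0.49, limma adjusted p = 0.849) with all libraries and 0.44 (SE 0.12, adjusted p = 0.0803) without HFpEF replicate 3. Dsc2 shared the order of Gja5 in its 3 highest libraries, which were HFpEF replicate 2, HFpEF replicate 1 and Chow replicate 3, those with the most atrial transcripts. The part of atrial tissue in Dsc2 was not tested beyond the covariate, with which its log2 fold change was -0.84 (SE 0.43, limma adjusted p = 0.237).

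At the adherens junction, Cdh2 encodes N-cadherin, the classical cadherin of heart muscle, and lies on chromosome 18. It measured 41.7, 40.8 and 39.6 FPKM in Chow and 34.1, 28.5 and 22.9 FPKM in HFpEF. The Chow values lay close together and all 3 HFpEF values lay below them. The mean was 40.7 ± 1.06 in Chow and 28.5 ± 5.60 in HFpEF (SD, n = 3 each), 29.9% lower, and the log2 fold change was -0.53 (SE 0.16, limma adjusted p = 0.140).

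Tjp1 encodes ZO-1, a scaffold that binds the tail of Cx43 at the edge of gap junctions, and lies on chromosome 7 (65296165 to 65527781, minus strand). It measured 15.4, 15.9 and 16.1 FPKM in Chow and 15.3, 14.9 and 11.9 FPKM in HFpEF. The groups did not overlap, by a margin of 0.119 FPKM, and HFpEF replicates 1 and 2 lay close to Chow. The log2 fold change was -0.18 (SE 0.12, limma adjusted p = 0.388) and without HFpEF replicate 3 it was -0.07 (SE 0.07). For the 6 genes without overlap, the exact two-sided permutation test gave p = 0.1, the smallest that 3 mice against 3 can give.

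Ratios between disc genes within a library do not depend on how libraries are scaled, and 8 were compared with exact two-sided permutation tests. The groups did not overlap for Gja1 to Tjp1 and for Dsp to Des, the gene of desmin. The ratio of Gja1 to Tjp1 was 3.79, 3.16 and 3.09 in Chow and 2.81, 2.78 and 2.89 in HFpEF (exact permutation p = 0.1, adjusted over the 8 ratios 0.4). Dsp to Des was 0.373, 0.356 and 0.378 in Chow and 0.267, 0.353 and 0.345 in HFpEF (exact permutation p = 0.1, adjusted 0.4), with HFpEF replicates 2 and 3 just under the Chow range. The ratio of Gja1 to Gja5 was 41.5, 34.8 and 14.8 in Chow and 6.22, 4.19 and 29.5 in HFpEF (exact permutation p = 0.2, adjusted 0.533). Dsg2 to Dsc2 was 1.24, 1.27 and 1.15 in Chow and 1.01, 0.807 and 1.52 in HFpEF (exact permutation p = 0.6, adjusted 0.8), so desmocollin exceeded desmoglein in HFpEF replicate 2 alone. For Gja1 to Gjc1, Gja1 to Cdh2, Dsp to Jup and Pkp2 to Jup the groups overlapped, with exact permutation p from 0.3 to 1.

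The ventricular cardiomyocyte markers were lower alongside the disc genes, with a median log2 fold change of -0.61. Among the 10 markers it ran from -0.48 for Ryr2 to -1.08 (SE 0.21, limma adjusted p = 0.0987) for Myl2, the ventricular regulatory light chain. That of Dsp, at -0.72, lay within this range. For Actc1, Myh6 and Atp2a2, the most abundant markers, it was -0.65, -0.53 and -0.50, smaller in size than for Dsp. When libraries were scaled to the level of the 10 markers, the median of all genes moved to 0.64 and the log2 fold change of Dsp was -0.05, while those of the other 9 disc genes lay above 0. Gja1 was then at 0.26, Pkp2 at 0.10, Jup at 0.10, Cdh2 at 0.14, Dsg2 at 0.31, Dsc2 at 0.49, Gjc1 at 0.54, Tjp1 at 0.49 and Gja5 at 1.79. On that scale no disc gene was lower in HFpEF without overlap, and the 2 with an unadjusted p under 0.05, Gja5 and Tjp1, were higher. At that p, 40 of the 14225 genes tested were lower on that scale and 7505 higher, so these counts do not set the disc genes apart. Relative to the all-gene median of that scale, Dsp lay at -0.69, Jup at -0.54, Pkp2 at -0.54, Cdh2 at -0.50, Gja1 at -0.38, Dsg2 at -0.33, Tjp1 at -0.15, Dsc2 at -0.15 and Gjc1 at -0.10, and Gja5 at 1.15. These differences nearly repeat the fold changes before that scaling, since 1 factor per library shifts most genes by about the same amount. Dsp, Jup, Pkp2, Cdh2 and Gja1 thus lay below the typical gene with or without it, while against these sarcomere and calcium genes of cardiomyocytes they lay between -0.05 and 0.26. The part of cardiomyocyte content in them was not tested further.

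**Figure D4:**
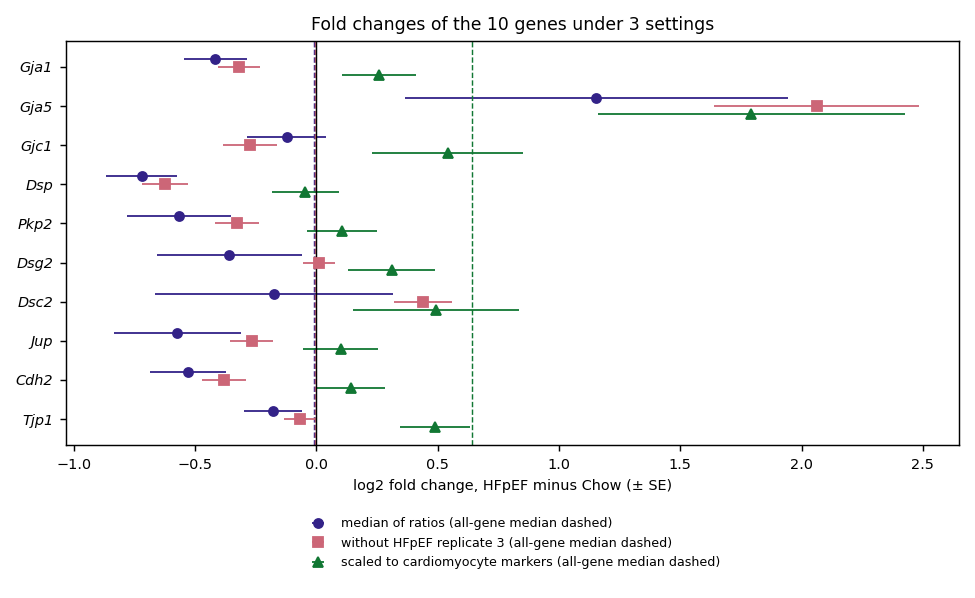
Log2 fold change, HFpEF minus Chow, with its SE (horizontal axis) for the 10 genes under 3 settings, with a dashed line at the median of all genes for each. Under the cardiomyocyte scaling the points lie further right, from -0.05 for Dsp to 1.79 for Gja5, around a dashed line at 0.64, and without HFpEF replicate 3 Dsc2 lies at 0.44.

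Markers of other cells were read beside the disc genes, and only the adipocyte list had genes at an adjusted p under 0.05, 4 of them. Fibroblast markers summed to 216 to 259 FPKM in Chow and 445, 423 and 3228 in HFpEF, macrophage markers to 110 to 140 in Chow and 134, 190 and 375 in HFpEF, and mesothelial markers to 18.7 to 29.3 in Chow and 36.4, 131 and 58.6 in HFpEF. Adipocyte markers summed to at most 0.123 FPKM in Chow and to 97.9, 95.3 and 37.8 in HFpEF. Smooth muscle and pericyte markers summed to 318 to 358 in Chow and 705, 233 and 530 in HFpEF, and endothelial markers to 192 to 215 in Chow and 160 to 175 in HFpEF. Skin and other squamous epithelium, which is rich in desmosomes, was represented by 8 markers that summed to 1.70 to 3.58 FPKM in Chow and 5.48 to 14.9 in HFpEF, with the keratin gene Krt5 listed at 0 in all 6 libraries. Most of that sum in HFpEF replicate 2 was Krt8 (6.48) and Krt18 (5.30), keratins that simple epithelium and mesothelium share. Krt1, Cdh1 and Epcam stayed at or below 0.206 FPKM. Krt14, another of the 8 markers, measured 0.120, 0 and 0.0470 FPKM in Chow and 0.288, 1.98 and 1.80 FPKM in HFpEF. Krt14 was thus higher in every HFpEF library than in any Chow library. The part of these cells in the disc gene values was not tested.

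Around the 10 genes, 107 further genes of the disc and of connexin turnover were read in 8 classes, of which 75 were tested. No gene of these classes passed an adjusted p under 0.05 (limma). At an unadjusted p under 0.05, 16 (21.3%) were lower in HFpEF and 11 (14.7%) were higher, against the 13.1% and 10.2% of all genes given above. Without overlap between groups, 28 (37.3%) were lower and 13 (17.3%) higher, against 19.8% and 15.5% of all genes, so that the share higher was near the background. The median log2 fold change of the 75 was -0.19. Without HFpEF replicate 3, 12 genes of these classes passed an adjusted p under 0.05 (limma), Nrap, Cav3, Des, Afdn, Actn2 and Src among them, where 8.22% of all genes did.

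The classes that lay lowest were the disc-enriched muscle proteins and the ion channels. Among 15 disc-enriched muscle proteins, 6 were lower and 2 higher at an unadjusted p under 0.05, with a class median of -0.36. Nrap, a protein that anchors thin filaments at the disc, measured 93.9, 103 and 103 FPKM in Chow and 71.7, 66.5 and 62.3 in HFpEF, a log2 fold change of -0.58 (SE 0.11, limma adjusted p = 0.0987). Pdlim3, a partner of alpha-actinin, was higher in each HFpEF library, at 4.99, 3.38 and 4.45 FPKM in Chow and 14.7, 6.55 and 12.2 in HFpEF, a log2 fold change of 1.30 (SE 0.31, limma adjusted p = 0.118). Among 13 tested ion channel and ankyrin genes, 5 were lower and 3 higher, with a median of -0.35. Cask, a scaffold of the membrane-associated guanylate kinase family, measured 1.47 to 1.79 FPKM in Chow and 2.23 to 2.46 FPKM in HFpEF, at 0.48 (SE 0.14, adjusted p = 0.141).

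Among 13 tested genes of the adherens junction catenins and actin linkers, 3 were lower and none higher at an unadjusted p under 0.05. Afdn (afadin) had a log2 fold change of -0.48 (SE 0.12, limma adjusted p = 0.118) and Actn2 (alpha-actinin 2) of -0.57 (SE 0.20, adjusted p = 0.169). Without HFpEF replicate 3 they were -0.38 each. The catenin Ctnnb1, the closest relative of Jup, measured 78.8, 87.8 and 76.4 FPKM in Chow and 74.6, 65.3 and 77.4 in HFpEF, and was picked out after its values were seen. Of the 7 filament and cardiomyopathy genes, Des was lower in each HFpEF library, at 420 to 438 FPKM in Chow and 243 to 346 in HFpEF (log2 fold change -0.51, SE 0.17, limma adjusted p = 0.165). Tmem43, a nuclear envelope protein mutated in arrhythmogenic cardiomyopathy, was higher in each, at 6.33 to 8.01 FPKM in Chow and 9.85 to 15.2 in HFpEF (0.75, SE 0.18, adjusted p = 0.118).

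The 13 genes of connexin trafficking and turnover had a median log2 fold change of 0.02. Src, a kinase that phosphorylates Cx43, measured 1.64, 1.70 and 1.74 FPKM in Chow and 3.04, 2.94 and 4.42 in HFpEF, a log2 fold change of 0.97 (SE 0.18, limma adjusted p = 0.0987). Cav3 (caveolin 3, of the muscle cell membrane) measured 44.2 to 46.2 FPKM in Chow and 24.1 to 35.7 in HFpEF, at -0.59 (SE 0.16, adjusted p = 0.124). In the adhesion class, Jam3 had a log2 fold change of 0.29 (SE 0.10, adjusted p = 0.173) and Jam2, another junctional adhesion molecule, of -0.61 (SE 0.26, adjusted p = 0.222) and of -0.30 without HFpEF replicate 3.

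Of the 13 other desmosomal genes only 4 reached the testing level, and the skin desmogleins and desmocollins were at most 0.0655 FPKM in any library. Ppl (periplakin), a plakin of epithelia, measured 3.44, 2.27 and 2.45 FPKM in Chow and 5.00, 8.83 and 3.22 in HFpEF, a log2 fold change of 0.94 (SE 0.36, limma adjusted p = 0.197). It was highest in HFpEF replicate 2, the library with the most mesothelial transcripts, and without that library the log2 fold change was 0.57. Perp, a desmosomal membrane protein, measured 68.1 to 80.2 FPKM in Chow and 43.9 to 70.6 in HFpEF, at -0.41 (SE 0.19, adjusted p = 0.254) and at -0.22 without HFpEF replicate 3.

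**Figure D5:**
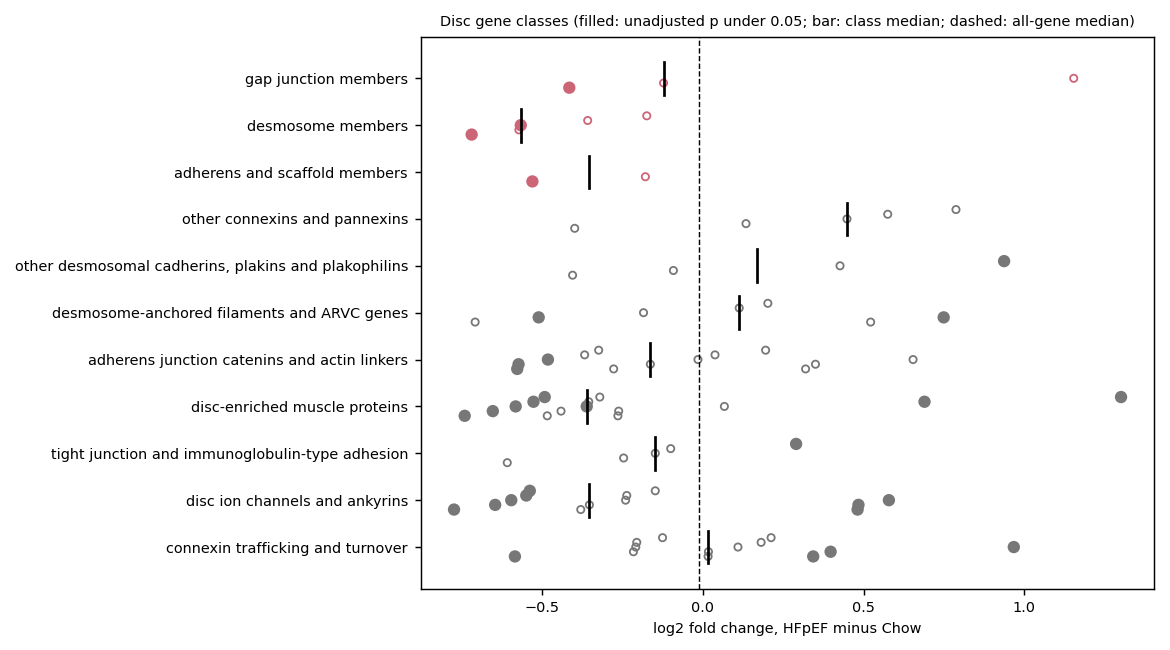
Log2 fold change, HFpEF minus Chow (horizontal axis), of each tested gene in the 3 groups of disc genes (red) and 8 further classes (grey), with filled points at an unadjusted p under 0.05, bars at class medians and a dashed line at the all-gene median of -0.01. The medians run from -0.57 for the desmosome genes to 0.45 for the other connexins and pannexins.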

How the data were processed

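Left ventricular RNA-seq comprised 3 Chow and 3 HFpEF libraries, each from a different mouse, grouped by the sample titles. Reads had been aligned by the authors with HISAT2 and assigned to genes with featureCounts, and the deposited values are FPKM. GRCm38 comes from the submitters' processing notes, and the annotation and FPKM formula are not given in the sources used here. FPKM multiplied by GENCODE M21 union exon lengths gave whole reads for 96.1% to 96.2% of values per library (relative tolerance 1e-06), and the depths are sums of these reads. The deposited FPKM appears to be scaled between libraries already, since median-of-ratios factors were close to 1. No column belonged to other samples.

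FPKM was divided by those factors, 0.1 was added, and log2 values of the 14225 genes reaching an FPKM of 0.5 in 3 or more libraries were fitted with limma 3.58.1 (lmFit, eBayes with trend and robust options, R 4.3.3), with Benjamini-Hochberg adjustment over all of them. Fold changes on this scale understate those of low genes. Single values and ratios were compared by exact two-sided permutation tests (Python 3.11.15, numpy 2.4.6, pandas 2.3.3, scipy 1.17.1, with figures in matplotlib 3.10.9). The fit was tested on simulated data, whose effect size and spread are not given here. There it called nearly all changed genes and more unchanged genes than its nominal rate. The power of the fit for log2 fold changes as small as those of most disc genes was not tested. Its power at the spread of these HFpEF libraries was not tested either. Replicate numbers did not pair the libraries.

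The disc genes, classes and 11 marker lists were chosen with earlier results of these data known. Named genes are all 10 disc genes, the 2 genes with the lowest unadjusted p in each further class, connexins with FPKM of at least 0.5 in any library and the 3 top genes by level in a marker list, or fewer. Others were named after their values were seen, and results for some genes under this rule are not reported here. Alternatives were FPKM as deposited, quantile normalization, scaling to cardiomyocyte markers or to the FPKM total without mitochondrial genes, an FPKM minimum of 1 or none, a pseudocount of 1 or 0.01, eBayes without trend and robust options, voom on recovered reads, a replicate block, and leaving out each library. The atrial covariate and the counts at an unadjusted p or without overlap were added after the data were seen. Proteomics and other assays of the study were not analysed here.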

Additional observations from a re-analysis of the deposited data

How the results depend on the processing

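With 3 mice per group, an exact permutation p cannot go below 0.1, and no spread beyond these mice was measured. Scaled to cardiomyocyte markers, the median log2 fold change of the 10 disc genes was 0.28 in place of -0.39. On that scale Gja1 lay at 0.26, Gjc1 at 0.54, Pkp2 at 0.10, Dsg2 at 0.31, Dsc2 at 0.49, Jup at 0.10, Cdh2 at 0.14 and Tjp1 at 0.49, and of the further genes Gja3 at 0.27, Perp at 0.27, Des at 0.16, Afdn at 0.19, Actn2 at 0.10, Nrap at 0.090, Jam2 at 0.062 and Cav3 at 0.087. This follows from dividing by genes that were themselves lower, and over all genes 40 were lower and 7505 higher at an unadjusted p under 0.05, against 1868 and 1452. Scaled to the FPKM total without mitochondrial genes, Gjc1 lay at 0.13, Dsc2 at 0.077 and Tjp1 at 0.073. With the atrial covariate, Gja5 lay at -0.15 and Gjc1 at 0.016. The cause was not tested for these or the changes that follow.

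The count of disc genes at an unadjusted p under 0.05, in either direction, was 4, all of them lower. It became 2 with quantile normalization, where 1672 of all genes were lower and 1176 higher. It was 2 with cardiomyocyte scaling, both higher, and 1 with the total without mitochondrial genes, where 608 of all genes were lower and 3649 higher. With 1 library left out it was 2 to 8. The 8 came without HFpEF replicate 3 and included Gja5 and Dsc2, which were higher. In that fit 2112 of all genes were lower and 1459 higher. The count lower without overlap was 6, and became 0 with cardiomyocyte scaling and 1 with the total without mitochondrial genes. Those scalings moved the all-gene median to 0.64 and 0.23, and the shares of all genes lower without overlap under them are not given here. The drop in that count therefore does not set the disc genes apart. Leaving out 1 library gave 0 to 2 disc genes and 0 to 12 further genes at an adjusted p under 0.05. The upper values came without HFpEF replicate 3, where Gja5 (2.06) and Dsp (-0.63) passed. The share of all genes passing, 0.0984%, was 1.17% with cardiomyocyte scaling, 0.541% with the total without mitochondrial genes, 0.0211% and 0.0351% with pseudocounts of 1 and 0.01, 0.0437% with no filter, 0.225% without trend and robust options, 0% with voom and 0.0141% to 8.22% with 1 library left out.

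With 1 library left out, the log2 fold change ran from -0.27 to 0.017 for Gjc1, -0.54 to 0.0096 for Dsg2, -0.56 to 0.44 for Dsc2 and -0.045 to 0.31 for Gja4. The log2 ratio differences ran from -0.36 to 0.070 for Dsp to Jup, -0.063 to 0.057 for Pkp2 to Jup and -0.43 to 0.023 for Dsg2 to Dsc2. Replicate numbers did not pair the libraries, since same-numbered libraries had correlations of deviations of -0.04, -0.07 and -0.06. With a replicate block, 0 disc genes passed, 5 had an unadjusted p under 0.05 and 0.0141% of all genes passed.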

Other observations

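Other classical cadherins, the family of Cdh2, lay on both sides of it, and 6 of the 9 read were tested. Cdh11, a cadherin of fibroblasts and other mesenchymal cells, measured 1.35, 0.967 and 1.11 FPKM in Chow replicates 1, 2 and 3 and 2.94, 3.69 and 4.05 FPKM in HFpEF replicates 1, 2 and 3. Every HFpEF library lay above every Chow library. The log2 fold change was 1.56 (SE 0.19, limma adjusted p = 0.0597), beside fibroblast markers that were at higher sums in all 3 HFpEF libraries. Cdh3, the placental cadherin of epithelia, measured 0.384, 0.0972 and 0.151 FPKM in Chow and 1.20, 2.15 and 2.24 FPKM in HFpEF, a log2 fold change of 2.72 (SE 0.45, limma adjusted p = 0.0841). Cdh5, the cadherin of endothelial junctions, measured 70.7, 76.0 and 68.7 FPKM in Chow and 54.3, 49.4 and 45.3 FPKM in HFpEF, a log2 fold change of -0.54 (SE 0.12, limma adjusted p = 0.107). It was the most abundant of the 7 endothelial markers, while Pecam1, another junctional protein of endothelium, measured 32.4 to 36.4 FPKM in Chow and 32.1 to 33.7 FPKM in HFpEF. Per exon length, the level of Cdh5 was above that of Cdh2 in all 6 libraries. No cadherin passed an adjusted p under 0.05 with all libraries, while Cdh11 and Cdh3 did without HFpEF replicate 3, and the part of cell composition in these values was not tested.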
